A study of Mus musculus with 12 samples.

Results

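The 10 genes described here encode the receptor chains of interleukin-4 (IL-4) and interleukin-13 (IL-13) and the Janus kinases (JAKs) and STAT transcription factors that act behind them: Il4ra, Il13ra1, Il13ra2, Jak1, Jak2, Jak3, Tyk2, Stat3, Stat5a and Stat6. Every probe annotated to 1 of them was taken, whatever its signal, which gave 22 of the 45281 probes of an Illumina mouse expression beadchip. The 16 of them that could be tested represent 9 of the 10 genes. RNA came from cultured mouse hepatic progenitor cells, epithelial precursors of the liver sorted for EpCAM, CD24 and CD133 and against dead cells and the CD45, CD31 and TER119 antigens of leukocytes, endothelium and red cells. After 24 hours without serum the cells received recombinant IL-4 at 50 ng/mL, recombinant IL-13 at 50 ng/mL or, as control, a vehicle of 0.1% bovine serum albumin, with 4 arrays in each group. All 3 groups shared a William's E based medium with 10% serum, dexamethasone at 100 nM and IL-6, hepatocyte growth factor and epidermal growth factor at 10 ng/mL each. IL-6 itself signals through JAKs and STAT3. Whether the medium during treatment still held these factors, how long the cytokines were present and the strain, age and number of mice are not stated by the labels.

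The 2 cytokines belong to the type 2 family and overlap in what they do. In cells other than blood cells both act mainly through the type II receptor, in which the IL-4 receptor alpha chain pairs with IL-13 receptor alpha 1. JAK1, JAK2 and TYK2 bind the tails of these chains and phosphorylate STAT6, which enters the nucleus and activates genes of the type 2 response. In blood cells IL-4 also binds the type I receptor, in which the alpha chain pairs with the common gamma chain and JAK3. The question put to the data was whether the machinery that receives these cytokines is itself measured in the progenitor cells and whether its transcripts differed after either cytokine.

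A probe was taken as detected on an array when the deposited detection p, which sets its signal against negative control probes, was under 0.05. Of the 22 probes 14 were detected on all 4 IL-4 arrays (63.6%), 15 on all 4 IL-13 arrays (68.2%) and 14 on all 4 control arrays (63.6%). Over all probes the shares were 36.9% with IL-4, 36.5% with IL-13 and 36.2% in control. A set of 6 member probes was detected on 0 arrays: the single Il4ra probe, 2 of 3 Jak1 probes, 2 of 4 Jak2 probes and 1 of 2 Stat6 probes. Their raw intensities lay between 93 and 106, where the median of all probes lay between 99.1 and 107, and the lowest detection p among them was 0.0929. Since Jak1, Jak2 and Stat6 each also had a probe detected on every array, a silent probe on this platform does not show that a transcript is absent.

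**Figure D1:**
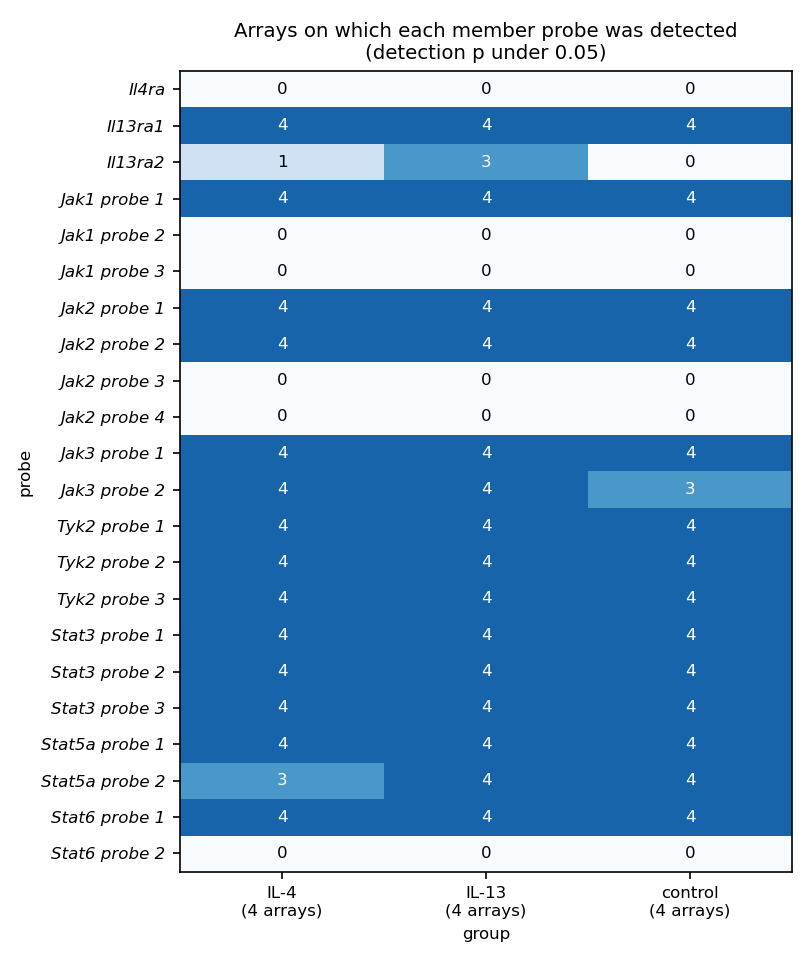
Number of arrays, of 4 in each group, on which each of the 22 member probes was detected (detection p under 0.05), with IL-4, IL-13 and control from left to right and 1 line per probe. The Il4ra probe and 5 further probes stand at 0 in every group, and Il13ra2 stands at 1 IL-4, 3 IL-13 and 0 control arrays.

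Each of 2 chips carried 2 arrays of every group, each group at the same positions, so position and group cannot be told apart. Between 18469 and 19869 probes were detected on an array (40.8 to 43.9%), and arrays of 1 group correlated across probes with r from 0.993 to 0.997. Krt19, a keratin of bile duct cells, and the gate gene Cd24a were detected on all arrays. Prom1, which encodes CD133, was detected by its brightest probe on 1 IL-4, 3 IL-13 and 1 control array. Of 8 progenitor and duct markers with a probe 7 were kept, and 2 of these had a limma adjusted p under 0.05 with each cytokine. Krt7 was at 9.19 with IL-4, 9.11 with IL-13 and 9.55 in control, and Krt18 at 12.78, 12.85 and 12.39. The probes of Epcam and of the CD31 gene Pecam1 were detected on 0 arrays, and Ptprc, which encodes CD45, on 1 IL-4 array. Of 7 endothelial markers with a probe 4, Pecam1 among them, were detected on 0 arrays and 1 (Kdr) was kept. Kdr was detected on 2 IL-4, 1 IL-13 and 1 control array, Cdh5 on 1 IL-4 and 1 control array, and Tek on 1 control array. Of 7 hepatocyte markers with a probe 3, Alb among them, were detected on 0 arrays and 4 were kept: Ttr, Hnf4a and Serpina1a on all arrays, and Apoa1 at a mean log2 signal of 5.31 with IL-4, 5.77 with IL-13 and 4.55 in control. Of 9 stellate cell and fibroblast markers with a probe 5, Col1a1 among them, were detected on 0 arrays and 3 were kept. Acta2 had 7.36 with IL-4, 6.13 with IL-13 and 8.20 in control. Des was detected on 2 IL-4, 4 IL-13 and 2 control arrays, and Pdgfra on 2, 2 and 1. The part of hepatocytes, stellate cells or endothelial cells in the results was not tested. Of 10 leukocyte markers 8 had a probe, 1 of these (Cpa3) was kept, and their mean log2 signal per array was 4.32 to 4.37 with IL-4, 4.30 to 4.36 with IL-13 and 4.31 to 4.41 in control. Mean hemoglobin signal was 8.95 on array IL-4 4, 6.77 on IL-4 2, 5.36 on IL-4 1 and 5.95 on control 4, and 4.40 to 4.80 on the other arrays; its part in the results was not tested, and values without IL-4 2, IL-4 4 and control 4 are given beside the results that moved most. Nothing states that the replicates came from separate cultures, so the p-values reflect the spread among these arrays alone, which may be technical. RNA was taken from the whole culture, so fewer cells with a transcript and less transcript per cell cannot be told apart.

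Signals were background-corrected, quantile-normalised and put on a log2 scale, and all differences below are differences of mean normalised log2 signal from a limma fit over all 19915 kept probes, with adjusted p from Benjamini-Hochberg over all of them. A probe counted as changed at an adjusted p under 0.05. With IL-4, 0 of the 16 member probes changed, beside 2.38% of all probes in either direction and 1.57% higher, and 5 of the 16 had an unadjusted p under 0.05, beside 12.2% of all. With IL-13, 2 of the 16 rose (Il13ra2, which was kept only through cytokine arrays and so adds no support to the count, and 1 of 2 Jak3 probes) and 0 fell, beside 3.79% of all probes changed in either direction and 2.33% higher, and 7 had an unadjusted p under 0.05, beside 15.9% of all. The median difference over the 16 probes was 0.01 with IL-4 and 0.15 with IL-13, where that of all probes was -0.01 in both. Il13ra2 is also among the 5 with IL-4 and the 7 with IL-13 and in both medians, and it adds no support to these either. These counts describe the probes that passed the detection filter and not all members. Both comparisons use the same 4 control arrays. Probes bind with different strength, so a signal is compared between groups for 1 probe and never between genes.

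**Figure D2:**
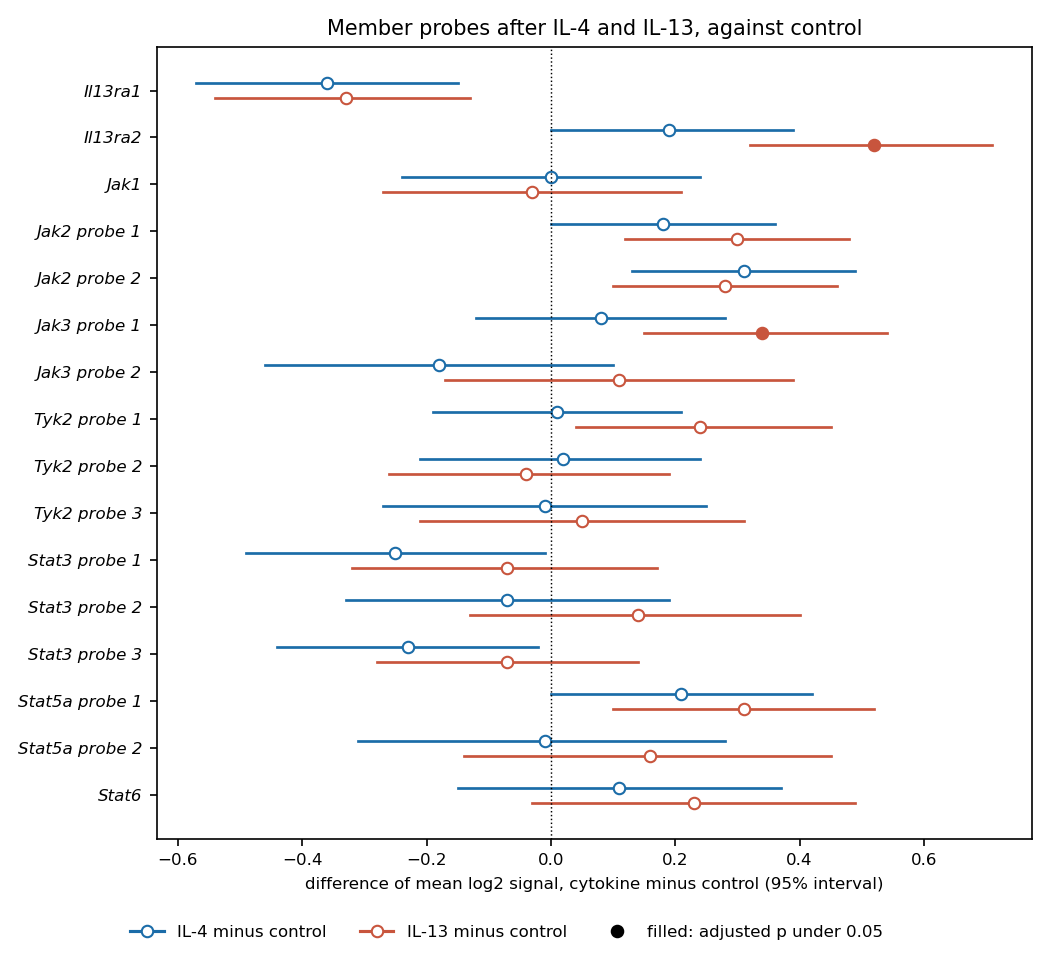
Difference of mean normalised log2 signal, IL-4 minus control (blue) and IL-13 minus control (red), for the 16 tested member probes, with points at the estimate and lines over its 95% interval from limma; filled points have an adjusted p under 0.05. The filled points are Il13ra2 at 0.52 and Jak3 probe 1 at 0.34, both with IL-13, and the Il13ra1 intervals of both cytokines lie below 0.

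The receptor chains differed among themselves: the signal of Il13ra1 was lower in both cytokine groups without passing the threshold, that of Il13ra2 rose with IL-13, and Il4ra could not be measured. Il13ra1 and Il13ra2 both lie on the X chromosome, Il4ra on chromosome 7. The 250 bases upstream of the start sites of the 2 IL-13 receptor chains are shown since their signals lay on opposite sides of control after IL-13. They come from RefSeq, build GRCm38.p6, read 5′ to 3′ on the strand of the gene (Il13ra1 chrX:36111858-36112107, plus strand; Il13ra2 chrX:147429193-147429442, minus strand), with CG pairs and, in Il13ra2, the letters TATAAA in capitals.
Il13ra1 upstream: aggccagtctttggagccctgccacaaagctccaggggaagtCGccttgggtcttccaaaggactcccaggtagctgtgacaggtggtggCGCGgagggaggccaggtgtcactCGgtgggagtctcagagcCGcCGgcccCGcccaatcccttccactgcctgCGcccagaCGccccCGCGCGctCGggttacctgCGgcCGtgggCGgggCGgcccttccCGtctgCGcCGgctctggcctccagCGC
Il13ra2 upstream: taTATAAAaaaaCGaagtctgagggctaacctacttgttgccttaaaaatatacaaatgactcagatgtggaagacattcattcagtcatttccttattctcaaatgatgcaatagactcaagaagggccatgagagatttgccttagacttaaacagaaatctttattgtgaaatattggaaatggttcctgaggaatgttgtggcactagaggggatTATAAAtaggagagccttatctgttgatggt
The Il13ra1 stretch holds 21 CG pairs (83.7% of all RefSeq promoters had fewer) and no TATAAA. That of Il13ra2 holds 1 CG pair (7.87% of promoters had fewer; the median was 6) and TATAAA on the strand of the gene at 248 and 31 bases before the start. TATAAA, searched on both strands, was in 13.6% of the 32851 promoter windows of 300 bases, and Il13ra2 was the only one of the 11 member windows with it.

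Il4ra encodes the chain that both type I and type II receptors contain and that binds IL-4. Its single probe (ILMN_2738433) had normalised log2 signals of 4.27, 4.24, 4.23 and 4.43 on the IL-4 arrays, 4.25, 4.24, 4.27 and 4.25 on the IL-13 arrays, and 4.31, 4.30, 4.38 and 4.29 on the control arrays. None of the 12 values was detected, so no difference was tested and no level can be given.

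Il13ra1 encodes the chain that completes the type II receptor and binds IL-13. Its probe (ILMN_2668696) was detected on all arrays, with log2 signals of 6.37, 6.34, 6.69 and 6.47 with IL-4, 6.36, 6.41, 6.73 and 6.47 with IL-13, and 6.68, 6.90, 6.93 and 6.80 in control. In each cytokine group 3 of 4 arrays lay below every control array, and the highest array (IL-4 3 and IL-13 3, both on chip 2) just passed the lowest control array. The mean was 6.47 ± 0.16 with IL-4, 6.49 ± 0.16 with IL-13 and 6.82 ± 0.11 in control (SD, n = 4 each). The difference was -0.36 ± 0.10 (SE) with IL-4 (95% interval -0.57 to -0.15, 0.781-fold, limma adjusted p = 0.0725) and -0.33 ± 0.10 with IL-13 (-0.54 to -0.13, 0.793-fold, adjusted p = 0.07), so neither passed the threshold. The IL-13 and IL-4 groups differed by 0.02 (95% interval -0.18 to 0.23, adjusted p = 0.961), which leaves differences of that width possible.

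The Il13ra1 signal lay below control on either chip, with differences of -0.43 on chip 1 and -0.28 on chip 2 with IL-4 and of -0.40 and -0.27 with IL-13. With the chip as a block both differences passed (adjusted p = 0.0369 for IL-4 and 0.04 for IL-13), and without IL-13 3 they passed as well (0.0452 and 0.0272). Leaving out IL-4 3 gave -0.43 with IL-4 (adjusted p = 0.0268). The sign was the same in all 30 alternatives of either comparison, of which 7 with IL-4 and 4 with IL-13 passed the threshold; the smallest sizes were -0.20 and -0.18. Without the 3 arrays of high hemoglobin signal the differences were -0.31 with IL-4 (adjusted p = 0.42) and -0.34 with IL-13 (0.125).

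Il13ra2 encodes a second receptor chain for IL-13, which binds it tightly and has a short tail that recruits no Janus kinase, and it is known mainly as a decoy that takes up the cytokine. The probe (ILMN_1246284) was near the detection limit, with log2 signals of 4.33, 4.44, 4.22 and 4.56 on the IL-4 arrays, 4.76, 4.89, 4.67 and 4.53 on the IL-13 arrays, and 4.18, 4.18, 4.16 and 4.26 on the control arrays. All 4 IL-13 arrays lay above all 4 control arrays, and so did 3 of 4 IL-4 arrays. Detection p was 0.015, 0.00534, 0.0214 and 0.0588 on the IL-13 arrays, 0.0438 on array IL-4 4, and from 0.516 to 0.970 on the control arrays. The probe was thus detected on 1 IL-4 array, 3 IL-13 arrays and 0 control arrays, and it passed the filter only through those 4 arrays, so a difference from control was built into its being tested. Its call also held with no filter on detection.

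The measured Il13ra2 signal, from a probe kept only through cytokine arrays, was higher with IL-13. Its mean was 4.71 ± 0.15 against 4.20 ± 0.05 in control (SD, n = 4 each), a difference of 0.52 ± 0.09 (SE, 95% interval 0.32 to 0.71, limma adjusted p = 0.00196). This is a difference of measured means with control at background. As the control arrays give only a bound, the IL-13 mean was set against the lowest signal among detected probes on each control array. By these means the rise was 1.11-fold or more, a bound given without an interval. The IL-13 mean includes array IL-13 4, on which the probe was not detected. With IL-4 the mean was 4.39 ± 0.15 and the difference 0.19 (adjusted p = 0.401; 0.10 and 0.808 without the 3 arrays of high hemoglobin signal), for which no fold is given. The measured IL-13 mean lay 0.32 above that of IL-4 (adjusted p = 0.516), a size left uncertain by detection on 1 of 4 IL-4 arrays. On chip 1 the IL-13 difference was 0.65 (adjusted p = 0.0106) and on chip 2 0.38 (0.265), and without the 3 arrays of high hemoglobin signal it was 0.54 (0.00334). The IL-13 difference passed in 27 of 28 alternatives, which are only those in which the probe was still tested. Filters that required detection on all arrays or a stricter detection p left the probe out. As a difference from control was built into its being kept, this count adds no support to the call. The size fell to between 0.20 and 0.21 where the background was not corrected or a larger constant was added before the log.

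**Figure D3:**
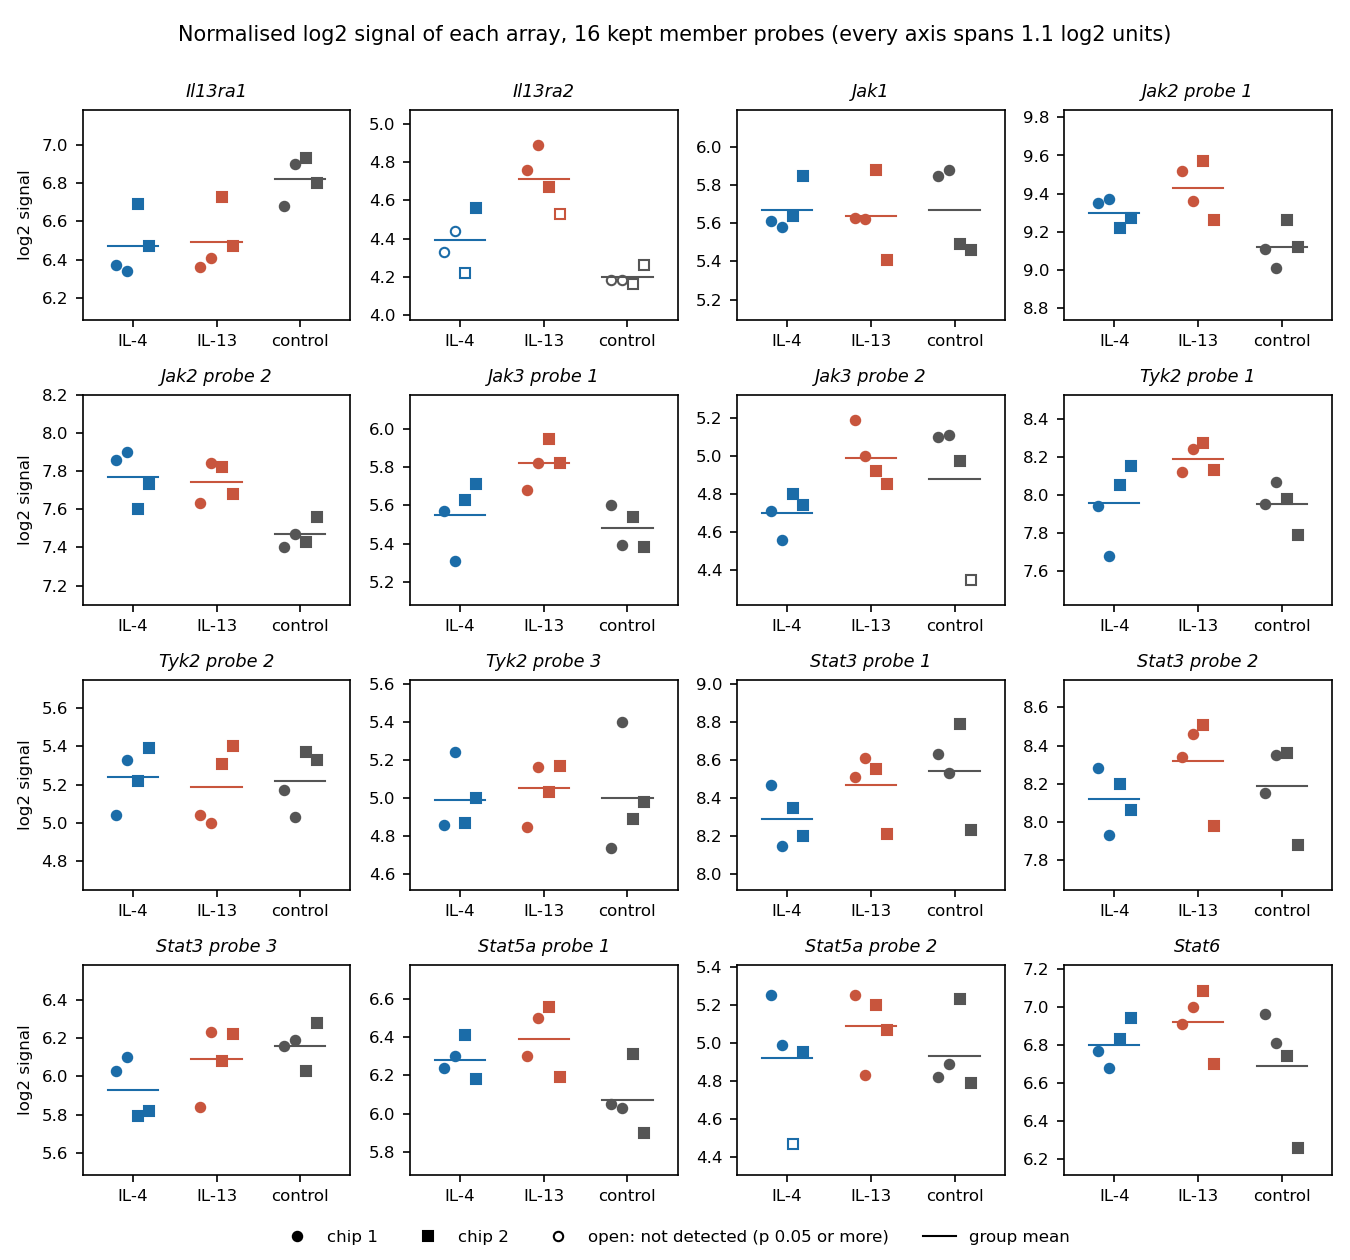
Normalised log2 signal of each array for the 16 tested member probes, 1 panel per probe, with IL-4, IL-13 and control from left to right, circles for chip 1 and squares for chip 2, open symbols where the probe was not detected and a line at the group mean. In the Il13ra1 panel the control mean of 6.82 lies above 6.47 with IL-4 and 6.49 with IL-13, and in the Il13ra2 panel all 4 control symbols are open, at 4.16 to 4.26.

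Among the Janus kinases 1 probe of Jak3 rose with IL-13, both tested probes of Jak2 lay above control without passing, and Jak1 showed no difference beyond its spread. Jak1 encodes the kinase bound by the IL-4 receptor alpha chain. Its detected probe (ILMN_2701093) had log2 signals of 5.58 to 5.85 with IL-4, 5.41 to 5.88 with IL-13 and 5.46 to 5.88 in control, and the groups overlapped fully. The difference was 0.00 with IL-4 (95% interval -0.24 to 0.24) and -0.03 with IL-13 (-0.27 to 0.21). Its sign differed between chip 1 and chip 2, with -0.27 and 0.27 for IL-4 and -0.24 and 0.17 for IL-13.

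Jak2 encodes a kinase that has been linked to the IL-13 receptor alpha 1 chain and that also serves the growth hormone and erythropoietin receptors. The first of its 2 detected probes (ILMN_1245579) had log2 signals of 9.35, 9.37, 9.22 and 9.27 with IL-4, 9.52, 9.36, 9.57 and 9.26 with IL-13, and 9.11, 9.01, 9.26 and 9.12 in control. The second (ILMN_3115162), designed on another RefSeq transcript of the gene, had 7.86, 7.90, 7.60 and 7.73 with IL-4, 7.63, 7.84, 7.82 and 7.68 with IL-13, and 7.40, 7.47, 7.43 and 7.56 in control. In the second probe every cytokine array lay above every control array, and in the first every IL-13 array did, by under the last digit printed for IL-13 4 against control 3. IL-13 minus control was 0.30 in the first probe (95% interval 0.12 to 0.48, limma adjusted p = 0.0579) and 0.28 in the second (0.10 to 0.46, adjusted p = 0.081). IL-4 minus control was 0.18 (0.00 to 0.36, adjusted p = 0.419) and 0.31 (0.13 to 0.49, adjusted p = 0.074). All of these missed the threshold.

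For Jak2 after IL-13 the call lay at the edge: the first probe passed in 9 of 30 alternatives, among them the fit with one probe per gene (adjusted p = 0.0398) and those without IL-13 4 (0.0322) or control 3 (0.0463), and the second passed in 2 of 28. The second probe passed with IL-4 in 4 of 28, among them the fit without IL-4 3 (adjusted p = 0.035). On chip 1 and chip 2 the IL-13 differences were 0.38 and 0.22 in the first probe and 0.30 and 0.25 in the second.

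Jak3 encodes the kinase of the common gamma chain and is best known from lymphocytes. Its probe 1 (ILMN_1219155) was detected on all arrays, with log2 signals of 5.57, 5.31, 5.63 and 5.71 with IL-4, 5.68, 5.82, 5.95 and 5.82 with IL-13, and 5.60, 5.39, 5.54 and 5.38 in control. All 4 IL-13 arrays lay above all 4 control arrays, while the IL-4 arrays spread over the control range and beyond it. IL-13 minus control was 0.34 ± 0.09 (SE; 95% interval 0.15 to 0.54; 1.27-fold), and the limma adjusted p of 0.0497 passed the threshold narrowly. IL-4 minus control was 0.08 (95% interval -0.12 to 0.28, adjusted p = 0.825), and IL-13 minus IL-4 was 0.26 (0.07 to 0.46, adjusted p = 0.556). Of the leukocyte markers Cpa3 alone could be tested. Of 8 macrophage markers with a probe 3 (Adgre1, Lyz2 and Fcgr1) were detected on 0 arrays and 3 were kept, 1 of which was called with IL-13. Cd14 was at 9.99 with IL-4, 9.99 with IL-13 and 9.78 in control, Mrc1 at 4.55, 4.38 and 4.75, and Csf1r at 4.82, 4.92 and 4.82. With IL-13 the mean of Mrc1 thus lay below control and those of Cd14 and Csf1r above it. Mrc1 was detected on 3 IL-4, 0 IL-13 and 3 control arrays. The part of such cells in the Jak3 signal was not tested.

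The second Jak3 probe (ILMN_3006451), designed on the same transcript, did not repeat the call. Its log2 signals were 4.71, 4.56, 4.80 and 4.74 with IL-4, 5.19, 5.0, 4.92 and 4.85 with IL-13, and 5.10, 5.11, 4.97 and 4.35 in control. Control 4, the lowest of the 12 arrays, was the only one on which this probe was not detected. IL-13 minus control was 0.11 (95% interval -0.17 to 0.39, adjusted p = 0.773) and IL-4 minus control -0.18 (-0.46 to 0.10, adjusted p = 0.668). Without control 4 these were -0.07 with IL-13 and -0.36 with IL-4 (adjusted p = 0.0548), and without the 3 arrays of high hemoglobin signal -0.07 and -0.30. On chip 1 and chip 2 the IL-13 difference was -0.01 and 0.22 and the IL-4 difference -0.47 and 0.11. All 4 IL-13 arrays lay above all 4 IL-4 arrays, with a difference of 0.29 (0.01 to 0.57, adjusted p = 0.629). The call in probe 1 was kept in 9 of 30 alternatives. Among the fits that left out 1 array it was kept only without IL-4 2, IL-4 4 or IL-13 1, and otherwise the adjusted p lay between 0.0511 and 0.154. On chip 1 and chip 2 the differences of probe 1 were 0.26 and 0.43, without the 3 arrays of high hemoglobin signal 0.31 (adjusted p = 0.0786), and 0.12 to 0.13 where the background was not corrected.

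Tyk2 encodes the kinase that the IL-13 receptor alpha 1 chain binds. Probe 1 (ILMN_2848018) had log2 signals of 7.94, 7.68, 8.05 and 8.15 with IL-4, 8.12, 8.24, 8.27 and 8.13 with IL-13, and 7.95, 8.07, 7.98 and 7.79 in control. The IL-13 arrays all lay above the control arrays, but the difference of 0.24 (95% interval 0.04 to 0.45) did not pass (limma adjusted p = 0.209). With IL-4 it was 0.01 (-0.19 to 0.21). Chip 1 and chip 2 gave -0.20 and 0.22 with IL-4 and 0.17 and 0.31 with IL-13. The other 2 Tyk2 probes differed from control by -0.01 and 0.02 with IL-4 and by 0.05 and -0.04 with IL-13, with overlapping groups.

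Over the 16 tested probes, the groups did not overlap for 1 probe with IL-4 (Jak2 probe 2, higher), beside 3.8% of all probes higher and 7.36% in either direction. With IL-13 they did not overlap for 5 probes, all higher, beside 5.02% of all probes higher and 9.61% in either direction. Of these 5, the receptor chain probe of Il13ra2 was kept only through cytokine arrays and so adds no support to the count. The other 4 are both tested probes of the kinase Jak2 and 1 each of Jak3 and Tyk2.

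STAT transcripts showed no called difference. Stat6 encodes the factor that both cytokines activate. Its detected probe (ILMN_2897230) had log2 signals of 6.77, 6.68, 6.83 and 6.94 with IL-4, 6.91, 7.0, 7.08 and 6.70 with IL-13, and 6.96, 6.81, 6.74 and 6.26 in control. The groups overlapped, and control 4 was the lowest of the 12 arrays. The difference was 0.11 with IL-4 (95% interval -0.15 to 0.37, limma adjusted p = 0.808) and 0.23 with IL-13 (-0.03 to 0.49, adjusted p = 0.385). Without control 4 it was -0.03 with IL-4 and 0.09 with IL-13, and without the 3 arrays of high hemoglobin signal -0.04 and 0.09. On chip 1 and chip 2 it was -0.16 and 0.38 with IL-4 and 0.07 and 0.39 with IL-13, so the sign with IL-4 was not settled.

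Stat5a encodes a factor best known downstream of growth hormone, prolactin and IL-2 family receptors, among whose targets is Cish. Probe 1 (ILMN_2976191) had log2 signals of 6.24, 6.30, 6.41 and 6.18 with IL-4, 6.30, 6.50, 6.56 and 6.19 with IL-13, and 6.05, 6.03, 6.31 and 5.90 in control. Control 3 lay within both cytokine groups and the other 3 control arrays below them. IL-13 minus control was 0.31 (95% interval 0.10 to 0.52, limma adjusted p = 0.1) and IL-4 minus control 0.21 (0.00 to 0.42, adjusted p = 0.415); without control 3 the IL-13 difference was 0.39 and passed (adjusted p = 0.0397). Probe 2 (ILMN_2976188) differed by 0.16 with IL-13 and by -0.01 with IL-4, with intervals over 0.

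Stat3 encodes the main STAT of IL-6 signalling, and IL-6 was part of the medium. Its 3 probes ranged, on the log2 scale, from 8.15 to 8.47, 7.93 to 8.28 and 5.79 to 6.10 with IL-4, from 8.21 to 8.61, 7.98 to 8.51 and 5.84 to 6.23 with IL-13, and from 8.23 to 8.79, 7.88 to 8.36 and 6.03 to 6.28 in control. IL-4 minus control was -0.25 (95% interval -0.49 to -0.01), -0.07 (-0.33 to 0.19) and -0.23 (-0.44 to -0.02), with limma adjusted p between 0.343 and 0.892. IL-13 minus control was -0.07, 0.14 and -0.07, with adjusted p between 0.669 and 0.832. Stat3 and Stat5a are neighbours on chromosome 11 in opposite orientation, with promoter windows at chr11:100939491-100939790 (minus strand) and chr11:100859406-100859705 (plus strand).

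Set directly against IL-4, IL-13 gave 0 changed member probes of 16 and 0 changed probes of 19915 (0% called), with 4 member probes at an unadjusted limma p under 0.05, beside 7.9% of all probes. These 4 were Il13ra2 (0.32, detected on 1 of 4 IL-4 arrays), both Jak3 probes (0.26 and 0.29) and Tyk2 probe 1 (0.23), all higher with IL-13. The member differences ran from -0.06 to 0.32 with a median of 0.14, where that of all probes was 0.00, and 13 of 16 were above 0. Il13ra2, kept only through cytokine arrays and mostly those of IL-13, is in each of these counts and adds no support to them. The groups did not overlap for 1 probe (Jak3 probe 2), beside 2.66% of all probes higher and 4.88% in either direction. Across the 16 probes and both cytokines the 95% intervals reached at most 0.30 to either side of the estimate, and differences as large as -0.36 (Il13ra1 with IL-4) missed the threshold.

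The promoter windows of the 10 genes (11 windows, 250 bases before to 50 after the start) were searched on both strands for TTC followed by GAA after 4 bases of any kind, the spacing favoured by STAT6, and for TTCNNNGAA, the spacing favoured by other STATs. The STAT6 spacing was in 6.95% of all 32851 windows and TTCNNNGAA in 8.3%, and 0 of the 11 member windows held either. This says only that these letters are not in these windows. Cish was looked up because its signal rose most among the pathway genes below, so it is no independent comparison. Matches in other genes that rose are not given, and a link of the motif to the rise was not tested. The Cish window holds 2 TTCNNNGAA matches, at bases 1 and 12 of the transcript. They are shown in capitals (RefSeq GRCm38.p6, chr9:107296659-107296678, plus strand).
Cish first bases: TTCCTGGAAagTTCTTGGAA

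Beyond the receptor, kinase and STAT genes, the feedback inhibitor Cish showed the largest differences of the pathway. Of 68 further pathway genes listed by role 46 could be tested, 4 had no probe matched here, and each gene was read by 1 kept probe. With IL-4, 2 rose (Cish and Gata3), 0 fell and 44 did not pass, beside 2.92% of all genes changed in either direction and 1.92% higher. With IL-13, 4 rose (Cish, Socs2, Gata3 and Ifngr2), 0 fell and 42 did not pass, beside 4.53% of all genes changed and 2.92% higher. Gata3 was detected on 1 control array and passed the detection filter only through cytokine arrays, so it adds no support to either count. The median difference of the 46 genes was 0.01 with IL-4 and 0.02 with IL-13, and that of all genes -0.01. IL-13 against IL-4 gave 0 changed genes of the 46.

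Cish encodes a SOCS family protein that damps STAT5 signalling. Its log2 signals were 11.56, 11.38, 11.60 and 11.41 with IL-4, 11.64, 11.70, 11.66 and 11.66 with IL-13, and 9.02, 9.03, 9.26 and 8.80 in control. Both cytokine groups lay far above control, by 2.46 with IL-4 (95% interval 2.27 to 2.65, limma adjusted p = 1.44e-12) and by 2.64 with IL-13 (2.45 to 2.83, adjusted p = 4.8e-13), and differed from each other by 0.18 (-0.01 to 0.37, adjusted p = 0.647). Socs2, a relative that restrains growth hormone signalling, had 10.17, 10.14, 10.07 and 9.95 with IL-4, 10.19, 10.33, 10.24 and 10.32 with IL-13, and 9.80, 9.82, 9.78 and 9.87 in control. All of its cytokine arrays lay above control, and it passed with IL-13 (0.45, adjusted p = 0.00113) but not with IL-4 (0.27, adjusted p = 0.0809). Socs3, the inhibitor of IL-6 signalling, differed by -0.11 with IL-4 and -0.08 with IL-13 (adjusted p = 0.725 and 0.78), and Socs1, an inhibitor of JAKs, was detected on 1 IL-4, 1 IL-13 and 0 control arrays and not tested.

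**Figure D4:**
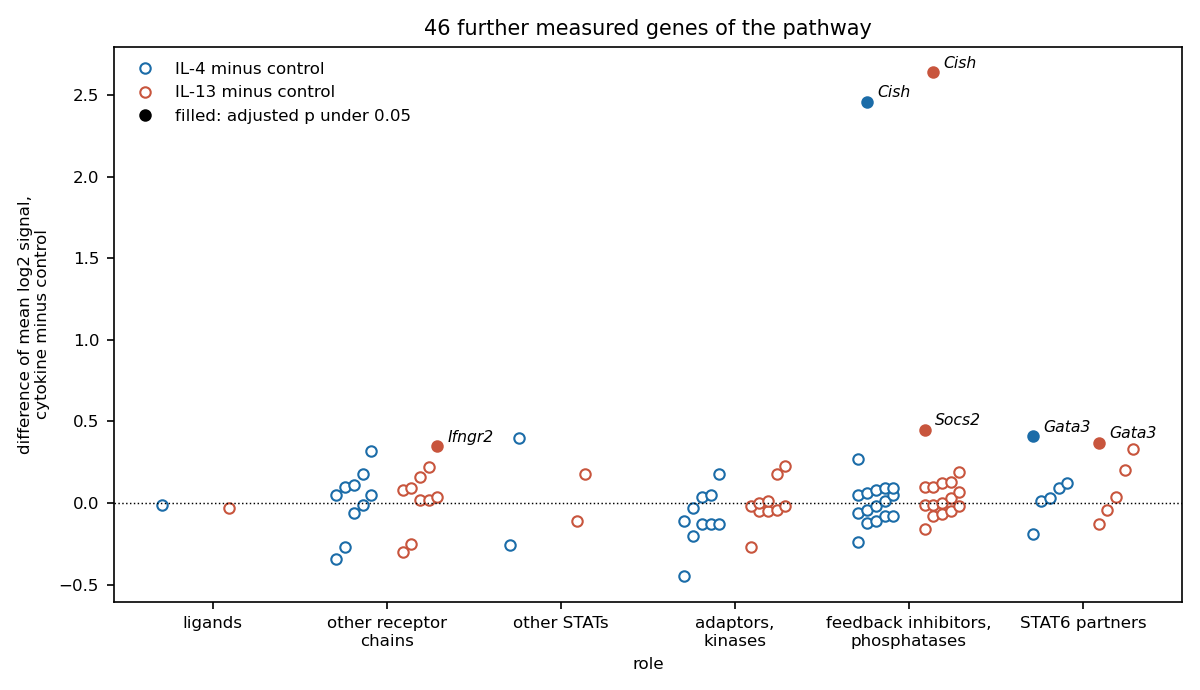
Difference of mean normalised log2 signal for the 46 further pathway genes tested, grouped by role, IL-4 minus control in blue and to the left of IL-13 minus control in red; filled and named points have an adjusted p under 0.05 in limma. Cish stands apart at 2.46 with IL-4 and 2.64 with IL-13, and all other genes lie between -0.45 and 0.45.

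Gata3, a transcription factor that works with STAT6 in helper T cells, was detected on 4 IL-4, 4 IL-13 and 1 control array and rose by 0.41 with IL-4 (limma adjusted p = 0.015) and by 0.37 with IL-13 (0.0214), sizes that its control arrays leave uncertain. Ifngr2, a chain of the interferon gamma receptor, rose by 0.35 with IL-13 (adjusted p = 0.0224), and its 2 further kept probes did not pass. Sh2b1, an adaptor of JAK2, did not pass with IL-13 in the counted probe (0.07, adjusted p = 0.738), though its other kept probe did. Without the 3 arrays of high hemoglobin signal Cish alone passed with IL-4, and Cish and Socs2 with IL-13. Of the genes that share kinases with the members, the IL-6 receptor chains Il6ra and Il6st differed by 0.10 and 0.18 with IL-4 and by 0.16 and 0.22 with IL-13 and did not pass. The insulin receptor substrate Irs2, an adaptor of the IL-4 receptor, differed by -0.45 with IL-4 (adjusted p = 0.236) and -0.02 with IL-13, and Irs1 by -0.13 and -0.05. Stat5b was detected on 0 arrays, and Il2rg, which encodes the common gamma chain, is not analysed here.

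The genes whose 12 array values lay closest to those of Il13ra1 were Antxr2, Slc8a1 and Abcc4, which encode an anthrax toxin receptor, a sodium-calcium exchanger and a transporter. Likeness was the root mean square difference of the centred log2 values, 0.065, 0.082 and 0.090, where the median over the 4647 genes of similar spread was 0.261. Their own differences from control were -0.36, -0.40 and -0.35 with IL-4 and -0.29, -0.37 and -0.44 with IL-13. For Stat6 the closest of 4885 genes were Sec14l1, Patl1 and Hps1, at 0.085, 0.089 and 0.089, with a median of 0.258. The values share their arrays and normalisation, and the likeness is a description of these 12 arrays.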

How the data were processed

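Per the file headers, the deposited table holds for 45281 probes on 12 arrays a signal and its detection p-value. The authors deposited the signal as a linear intensity, neither normalised between arrays nor background-subtracted. GenomeStudio 2011.1 was used per the submitters' processing notes with settings not given in the sources used here. Deposited processed values of the submitters are log2 intensities plus a constant for each array (2.22 to 2.34) that brings every median to 8.97; they served as an alternative.

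Intensities were normalised with neqc in limma 3.58.1 (R 4.3.3; background from detection p-values, offset 16, quantiles, log2). The offset pulls the differences of dim probes toward 0. Probes with detection p under 0.05 on at least 4 of 12 arrays were kept (19915). The 3 comparisons were fitted in 1 model (lmFit, eBayes, two-sided), with Benjamini-Hochberg adjustment over all kept probes and 95% intervals. Probes were the unit for the members; of the further pathway genes the kept probe of highest mean stood for each of 10453 genes. Probe names came from the platform annotation, updated by gene identifier (99.8% of the 34885 probes with 1 symbol; 18 had several and 10378 none). Replicates with the same number did not deviate together (r from -0.17 to 0.18), so no pairing was used. The fit was tested on simulated data.

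All member probes are named, of the further genes those called and a set of 10 fixed by name, and for Il13ra1 and Stat6 the 3 most alike genes. The members and lists were chosen with earlier results of these data known. Upstream sequences and motif shares come from RefSeq promoter windows (GRCm38.p6, 32851 windows). Alternatives changed the background correction, offset, scaling, filter, unit, variance model, weights, block, arrays and threshold.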

Additional observations from a re-analysis of the deposited data

How the results depend on the processing

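The 48 differences of member probes were recomputed under up to 30 alternatives (1386 values). The verdict was unchanged in 1336, 22 lost and 28 gained a call, and 0 changed sign where a call was at stake. As the main setting held only 2 calls, most values had no call to lose, and the unchanged share is no measure of how stable the calls were. Il13ra2 lost its call on chip 2 alone, and all other losses were of Jak3 probe 1, kept in 9 of 30 alternatives. No member or further pathway gene was called for IL-13 against IL-4 under any alternative. With IL-4 the number of member probes called, 0, became 1 without background correction, with an offset of 50 (both Jak2 probe 2), and with the submitters' values, the mean over the probes of a gene, the chip as a block or the replicate block (all Il13ra1), and 2 with array weights (both); leaving out 1 array gave 0 to 2. With IL-13 it was 2 and became 1 (Il13ra2) with the submitters' values, no filter, chip 1 alone, an adjusted p under 0.01 or without control 4, IL-4 2 and IL-4 4, and 0 on chip 2 alone; leaving out 1 array gave 1 to 3, the 3 without control 3. Under the replicate block, whose numbers do not pair the arrays (4 of 12 correlations over 0.1, 5 of 12 arrays best with their own number), it was 3: Il13ra1 (adjusted p = 0.0264), Il13ra2 and Stat5a probe 1 (0.0313), with Jak3 lost (0.0539). The further pathway genes called with IL-4, 2, became 4 with the submitters' values, one probe per gene, the mean of probes or a robust variance trend, and 1 (Cish) on either chip alone, at an adjusted p under 0.01 and without the 3 arrays; leaving out 1 array gave 1 to 3, with Osmr lower in place of Gata3 without control 1. All 4 were higher in those settings except with the submitters' values, where Cish was higher and Cebpb, Ghr and Osmr lower. With IL-13 they were 4 and became 1 on either chip alone and 2 at an adjusted p under 0.01 or without the 3 arrays. Leaving out 1 array gave 2 to 5. They were 5 without background correction, with scaling to the 75th percentile, with one probe per gene or with the stricter detection p, and 6 with a robust variance trend. Each of these settings called Ghr lower, which in the main setting differed by -0.30 with IL-13 (limma adjusted p = 0.0563). Leaving out those 3 arrays together was chosen after seeing the data. Over all probes 66% of calls with IL-4 and 61.6% with IL-13 were higher in the main setting, but 31.8% and 33.1% with the submitters' values, which are not quantile-normalised and put the median difference at -0.04 with IL-4 and -0.02 with IL-13; on chip 1 and chip 2 alone the shares were 78.4% and 78.9% with IL-4. The number of arrays and, for Il13ra2 and Il4ra, a signal at background limit the precision. Il13ra2 was not testable with probes detected on all 12 arrays or at a detection p under 0.01. An order of levels across members was not made, as probes differ in binding.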
